A study of Mus musculus with 36 samples.

Results

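A set of 7 genes of the mouse transcriptome is described here, Inpp5d, Gpa33, Wdtc1, Sh3rf3, Suox, Erbb3 and B3gnt3, out of 21442 genes in the count table. They were chosen by name because earlier results of these libraries had put them among genes that differed between Zfp266 knockout (KO) and wild-type (WT) cells at many stages. The KO over WT differences of these 7 genes therefore chose them, and are given below as values with no test. What the choice did not use, and what is tested, is the course of each gene through the control stages, the genes that work with each of them, and the genes that lie next to them on the chromosome.

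Bulk mRNA was sequenced from 36 libraries, 3 in each of 12 groups, made of 6 stages and 2 genotypes. The first stage was passage 2 mouse embryonic fibroblasts (MEFs), labelled strain 129 and taken from 12.5 day embryos. The paper describes these embryos as chimeras of a stem cell line of strain 129 background and host morulae from females of another cross. No sort of the MEF samples is described, and their share of host cells is not stated. MEFs of the line expressed Cas9 and carried a Nanog-GFP reporter and a doxycycline-inducible transgene for Myc, Klf4, Oct4 and Sox2. They received a lentivirus with either a non-targeting guide RNA (WT) or a Zfp266 guide RNA (KO) and were collected after 96 h. Reprogramming cells, also of strain 129, were transduced 24 h before the transgene was switched on with 300 ng/ml doxycycline and 10 µg/ml vitamin C, and transgene-expressing cells were sorted at day 3 (D3), day 5 (D5) and day 7 (D7) from a culture with an excess of ordinary MEFs. Induced pluripotent stem cells (iPS) were 3 independent WT and 3 independent KO clones, lifted at day 15 and grown in 1 µg/ml puromycin, which selects clones that no longer need the transgene. Embryonic stem cells (ESC) were 3 WT samples and 3 KO samples of clones made from the line Clone J by transfection of a Zfp266 guide plasmid. How many separate clones stand behind the ESC samples is not stated. KO at the MEF and reprogramming stages is thus a population of transduced cells, whereas KO iPS and ESC libraries are from genotyped clones. Apart from any host cells in the MEF samples, all groups share the Cas9 background, since the fibroblasts were derived from the same Cas9 stem cell line as the ESC. WT cells from MEF to iPS received a guide virus too.

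Library totals ranged from 19224103 to 39610939 reads in genes. The marker lists followed the stage labels: the summed normalised count of 10 fibroblast markers was at least 404115 in every MEF library and at most 608 in every iPS or ESC library, while that of 10 pluripotent cell markers was at most 31.0 in MEFs and at least 103799 in iPS and ESC. At D7 the pluripotent sum ran from 5493 to 9554 in WT and from 25447 to 33817 in KO libraries, and the fibroblast sum from 22208 to 34305 in WT and from 7042 to 21697 in KO. At D5 the pluripotent sum was 1238 to 1480.1 in WT and 2757 to 4117 in KO, and at D3 and in iPS the genotypes overlapped. In ESC it was 121560 to 129848 in WT and 137981 to 139505 in KO. The KO libraries of D5, D7 and ESC thus differed in stage marker sums along with the genes below, and the part of that difference in the values of the 7 genes was not tested. The overlapping D3 sums do not show that the stage was alike. At D3 the mean of Utf1 was 162 in WT and 74.4 in KO, while the other pluripotent markers had higher means in KO. Among them Zfp42 had 149 and 223, and Esrrb 60.8 and 84.3. The targeted gene itself, Zfp266 (chr9:20495068-20521417), a KRAB zinc finger gene, had 2949 ± 136 normalised counts in MEF WT and 3200.0 ± 114 in MEF KO (SD, n = 3), 1531 ± 99.9 and 1909.9 ± 122 at D3, and 1422 ± 137 and 1620.0 ± 103 at D5. It had 1468 ± 58.1 and 1537 ± 31.4 at D7, 2647 ± 151 and 2019 ± 169.8 in iPS, and 2363 ± 109.7 and 2127 ± 138 in ESC. Small deletions made by Cas9 need not change a transcript count, so these counts do not check the labels.

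The 7 genes come from unrelated families. Erbb3 encodes a receptor for neuregulins whose own kinase is impaired and which signals in pairs with other ErbB receptors to phosphoinositide 3-kinase. Inpp5d encodes SHIP1, a phosphatase best known in blood cells that removes the 5-phosphate from the lipid that this kinase makes. Gpa33 encodes an immunoglobulin-family glycoprotein of the cell surface, known from intestinal epithelium. Sh3rf3 encodes a scaffold with SH3 domains and a RING finger that acts in the JNK pathway, and Wdtc1 encodes a WD-repeat protein that brings substrates to the CUL4-DDB1 ubiquitin ligase. Suox encodes sulfite oxidase, a mitochondrial enzyme that needs the molybdenum cofactor, and B3gnt3 encodes an N-acetylglucosaminyltransferase that extends core O-glycans.

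In the GENCODE annotation of GRCm38, Inpp5d lies at chr1:87620312-87720507 (plus strand), Gpa33 at chr1:166130238-166166510 (plus), Wdtc1 at chr4:133292459-133353481 (minus), Sh3rf3 at chr10:58813359-59138916 (plus) and B3gnt3 at chr8:71690756-71701789 (minus). Erbb3, at chr10:128567523-128589652, and Suox, at chr10:128669894-128674073, are both on the minus strand and lie 80242 bp apart. None of the 7 shares exon bases with another annotated gene, so their counts do not hang on how strand was treated.

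RefSeq start sites of 6 of the 7 genes had an entry in the GRCm38.p6 promoter table, and the 250 bases before each start were searched on both strands for 5 short motifs. These starts are not always the ends of the GENCODE bodies above. The Wdtc1 window (chr4:133339316-133339565) lies inside the GENCODE body of the gene, and the Suox window lies partly inside its own. The SP box (GGGCGG) was found in B3gnt3, Sh3rf3 and Suox, against 32.7% of all 32851 promoters. The KLF box (GGGTGTG, 6.93% of all promoters), the E-box (CACGTG, 6.02%), the octamer (ATGCAAAT, 1.6%) and a piece of the B1 SINE repeat (AATCCCAGC, 0.67%), a repeat family at the centre of the study, had no match in any of the 6 windows. With so rare an exact piece and such short windows, this says nothing of B1 repeats elsewhere at these genes. The paper places a B1 SINE in a region of B3gnt3 that was more open in KO reprogramming cells. In its reporter assays, deleting that repeat diminished activation by an activator form of ZFP266. The GC content was 47.6% for Gpa33, 54.4% for Inpp5d, 60.0% for B3gnt3, 72.0% for Wdtc1, 74.4% for Suox and 79.2% for Sh3rf3, and the median of all promoters was 52.4%. The stretches with a match are shown 5′ to 3′ on the strand of the gene with each SP box in capitals, Suox at chr10:128673919-128674168 (minus), Sh3rf3 at chr10:58813109-58813358 (plus) and B3gnt3 at chr8:71701801-71702050 (minus). The Suox stretch ends in 3 overlapping boxes next to the start site, Sh3rf3 has 2 boxes and B3gnt3 has 1 after a run of G.
Suox: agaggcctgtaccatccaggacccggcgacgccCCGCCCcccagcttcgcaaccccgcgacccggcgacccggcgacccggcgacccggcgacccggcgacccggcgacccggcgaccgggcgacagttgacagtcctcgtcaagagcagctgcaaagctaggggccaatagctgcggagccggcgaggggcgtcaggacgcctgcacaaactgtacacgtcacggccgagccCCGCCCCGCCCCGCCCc
Sh3rf3: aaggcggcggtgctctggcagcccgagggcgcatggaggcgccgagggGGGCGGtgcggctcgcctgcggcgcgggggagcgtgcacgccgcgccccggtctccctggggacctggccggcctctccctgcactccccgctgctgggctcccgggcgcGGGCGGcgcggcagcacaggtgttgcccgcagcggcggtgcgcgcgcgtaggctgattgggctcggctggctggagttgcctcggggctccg
B3gnt3: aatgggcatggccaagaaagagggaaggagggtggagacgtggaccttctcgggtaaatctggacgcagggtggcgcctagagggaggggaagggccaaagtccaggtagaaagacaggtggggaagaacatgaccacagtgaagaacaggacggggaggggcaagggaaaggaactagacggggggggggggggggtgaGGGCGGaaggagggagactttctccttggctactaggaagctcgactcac

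**Figure D1:**
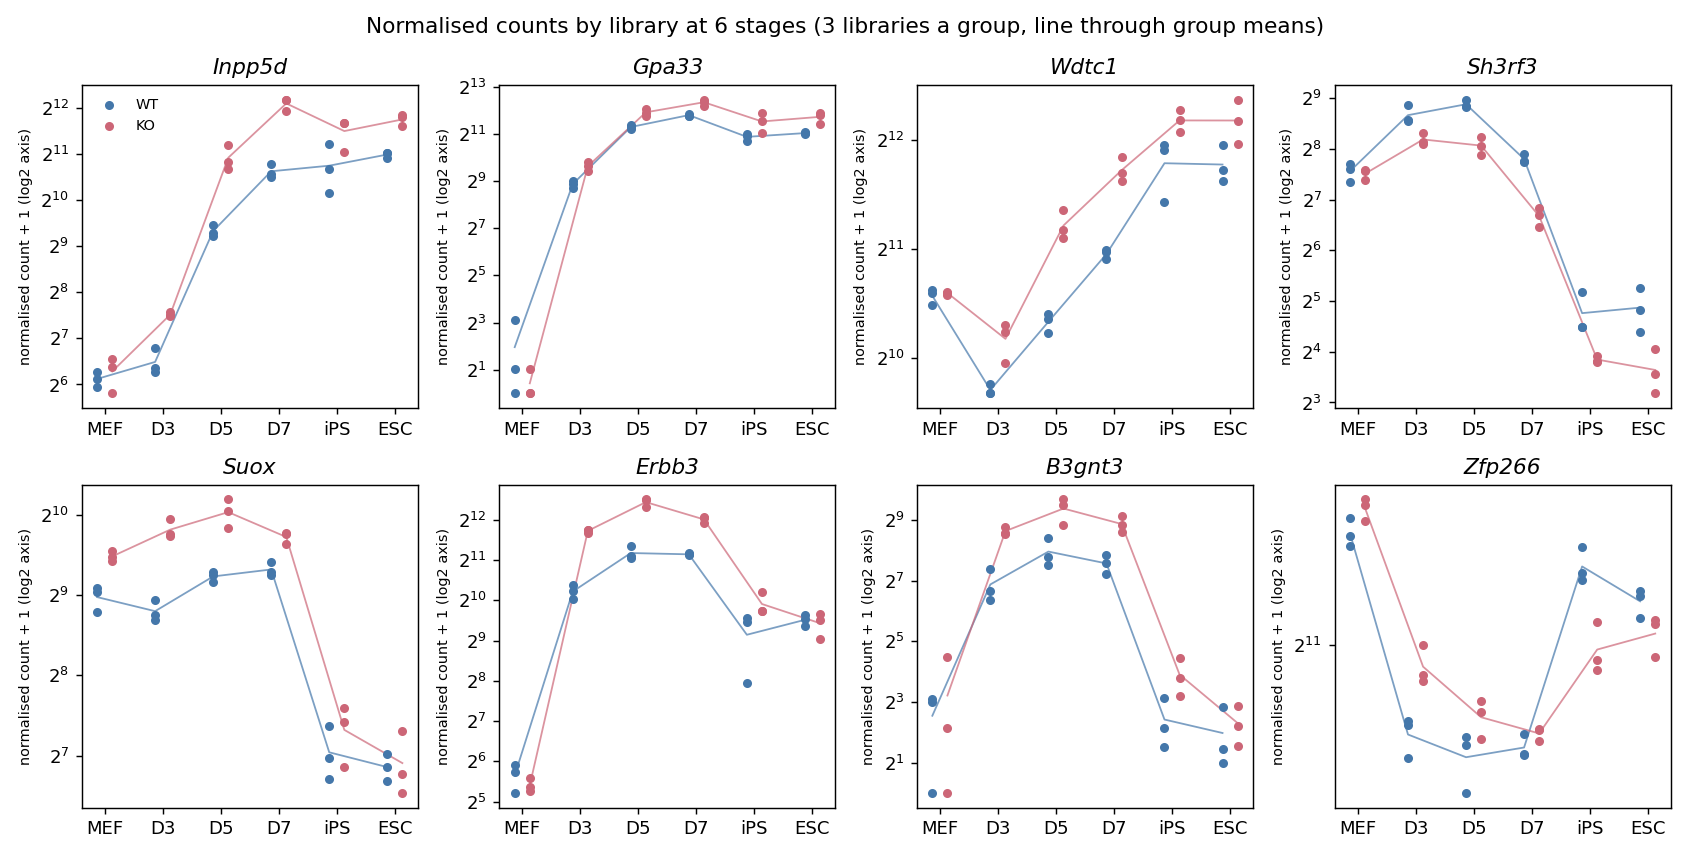
Normalised counts plus 1 on a log2 axis for the 7 genes and Zfp266, by stage, with 1 point for each of 3 WT (blue) and 3 KO (red) libraries and lines through the group means. From D3 to D7 the 3 KO libraries lie above the 3 WT libraries for 6 genes and below them for Sh3rf3.

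Erbb3 was low in fibroblasts of both genotypes and was higher in KO at all 3 reprogramming days. Its MEF libraries had 52.2, 59.1 and 36.1 normalised counts (counts divided by a factor for library size) in WT and 40.2, 46.9 and 37.1 in KO. At D3 the WT libraries had 1331, 1039 and 1196 and the KO libraries 3278, 3434 and 3429.8, with a log2 fold change (log2FC) of 1.51 (SE 0.23). At D5 the values were 2604, 2135 and 2183 against 5815, 5764 and 5058 (log2FC 1.27, SE 0.23), and at D7 they were 2300.4, 2218 and 2252 against 4211, 4262 and 3879.8 (log2FC 0.87, SE 0.23). The genotypes did not overlap on any of these days, and the lowest KO library at D3 was above the highest WT library of any stage. Among iPS clones the WT values were 698, 247 and 748 and the KO values 846, 852 and 1179 (log2FC 0.77, SE 0.23). This difference leaned on WT replicate 2, since the log2FC was 0.41 without it. In ESC the genotypes overlapped, with 655, 743 and 792 in WT and 523, 731 and 812 in KO (log2FC -0.08, SE 0.23).

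Gpa33 was all but silent in fibroblasts, where the 3 WT libraries held 0, 5 and 1 reads and the 3 KO libraries 0, 1 and 0, at or near the 3 reads that a count of 0 allows, so no fold is given there. From D3 on, every KO library was above every WT library of its stage. The D3 values were 417, 514 and 477 normalised counts in WT and 696, 889.5 and 796 in KO (log2FC 0.76, SE 0.16). At D5 they were 2513, 2657 and 2385 against 3837, 4327 and 3488 (log2FC 0.62, SE 0.15), and at D7 they were 3718, 3531 and 3477 against 5292, 5642 and 4735 (log2FC 0.55, SE 0.15). The iPS clones had 1653, 1956 and 2047 in WT and 2994, 2105 and 3799 in KO (log2FC 0.65, SE 0.15), with KO replicate 2 close to the WT clones. The ESC libraries had 2021, 2167 and 2131 against 2787, 3607 and 3803 (log2FC 0.69, SE 0.15). The 5 fitted differences thus lay between 0.55 and 0.76.

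Inpp5d was alike in WT and KO fibroblasts, at 60.9, 75.7 and 69.0 normalised counts in WT and 82.7, 92.7 and 55.1 in KO (log2FC 0.16, SE 0.25). KO libraries stood above WT libraries at D3, with 109, 76.0 and 81.4 in WT and 177, 189 and 179.9 in KO (log2FC 1.03, SE 0.22). The gap was widest at D5, where WT had 598, 708 and 622 and KO had 1642, 2359 and 1815 (log2FC 1.59, SE 0.20). At D7 WT had 1772, 1528 and 1442 and KO had 4598, 4649.9 and 3927 (log2FC 1.47, SE 0.20), the highest values of the gene in any group. The iPS clones overlapped, with 1629.6, 1138 and 2392 in WT and 3280.5, 2128 and 3280.1 in KO (log2FC 0.75, SE 0.20), and the difference was 1.07 without WT replicate 3 and 0.53 without WT replicate 2. The ESC libraries did not overlap, at 1934, 2089 and 2081 against 3681, 3568 and 3103 (log2FC 0.76, SE 0.20).

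Sh3rf3 was the one gene of the 7 that was lower in KO. Fibroblasts did not differ beyond their spread, at 162, 194 and 208 normalised counts in WT and 165, 190.5 and 189 in KO (log2FC -0.06, SE 0.15). At D3 WT had 378, 372 and 466 and KO 282, 273 and 316 (log2FC -0.48, SE 0.13), and at D5 WT had 452, 502 and 458 and KO 300.4, 234 and 267 (log2FC -0.82, SE 0.13). At D7 the values were 216, 238 and 213 against 112, 87.5 and 103 (log2FC -1.14, SE 0.15). In pluripotent cells the transcript was scarce, with 25, 25 and 38 reads in WT iPS, 13, 15 and 14 reads in KO iPS, 20, 27 and 43 reads in WT ESC and 12, 16 and 9 reads in KO ESC. On the fitted scale these were log2FC -0.96 (SE 0.29) and -1.33 (SE 0.30), and no KO library reached a WT library of its stage from D3 on.

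Wdtc1 was expressed in every library and was higher in KO from D3 on. Fibroblasts had 1548, 1434 and 1580.3 normalised counts in WT and 1551, 1561 and 1533 in KO (log2FC 0.03, SE 0.12). The D3 values were 819, 819 and 870.3 in WT and 995, 1267 and 1209.7 in KO (log2FC 0.47, SE 0.12). At D5 they were 1314, 1199 and 1355 against 2199, 2628 and 2306 (log2FC 0.88, SE 0.12), and at D7 1918, 2029.9 and 2003 against 3146, 3672 and 3312 (log2FC 0.77, SE 0.12). The difference was smaller among iPS clones, at 3852, 2768 and 3977 against 4297, 4954 and 4656 (log2FC 0.39, SE 0.12, and 0.24 without WT replicate 2). In ESC it was 3161, 3374 and 3973 against 5291, 4615 and 3994 (log2FC 0.40, SE 0.12), where the lowest KO library was only just above the highest WT library.

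Suox was the only one of the 7 whose genotypes were apart in fibroblasts already, with 442, 542 and 524 normalised counts in WT and 749, 709 and 688 in KO (log2FC 0.51, SE 0.15). At D3 WT had 489.6, 413 and 432 and KO had 865, 985 and 855 (log2FC 1.02, SE 0.15). The values were 607, 624 and 573 against 1063, 1172 and 913 at D5 (log2FC 0.80, SE 0.15), and 682, 626 and 608 against 874, 867 and 798 at D7 (log2FC 0.41, SE 0.15). In iPS the genotypes overlapped, at 164, 103 and 124 in WT and 169.7, 115 and 192 in KO (log2FC 0.28, SE 0.17). ESC overlapped too, at 101, 114 and 129 in WT and 91.6, 108 and 157 in KO (log2FC 0.05, SE 0.18).

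B3gnt3 was near the floor in fibroblasts and ESC and clear only during reprogramming. The MEF libraries held 4, 5 and 0 reads in WT and 3, 21 and 0 in KO, and the ESC libraries 1, 6 and 2 in WT and 7, 2 and 4 in KO, so no fold is given for these stages. At D3 WT had 168, 81.0 and 101 normalised counts and KO 439, 381 and 371 (log2FC 1.77, SE 0.43). At D5 the values were 341, 221 and 182 against 820.2, 722 and 453 (log2FC 1.42, SE 0.42), and at D7 229, 190.3 and 147 against 557, 452 and 391 (log2FC 1.30, SE 0.42). KO was above WT on each day, and replicate 1 was the highest library of its group each time. In iPS clones WT held 9, 4 and 2 reads and KO 13, 24 and 8 (log2FC 1.68, SE 0.60), a fitted difference that moved between 1.26 and 2.40 when 1 library was left out.

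**Figure D2:**
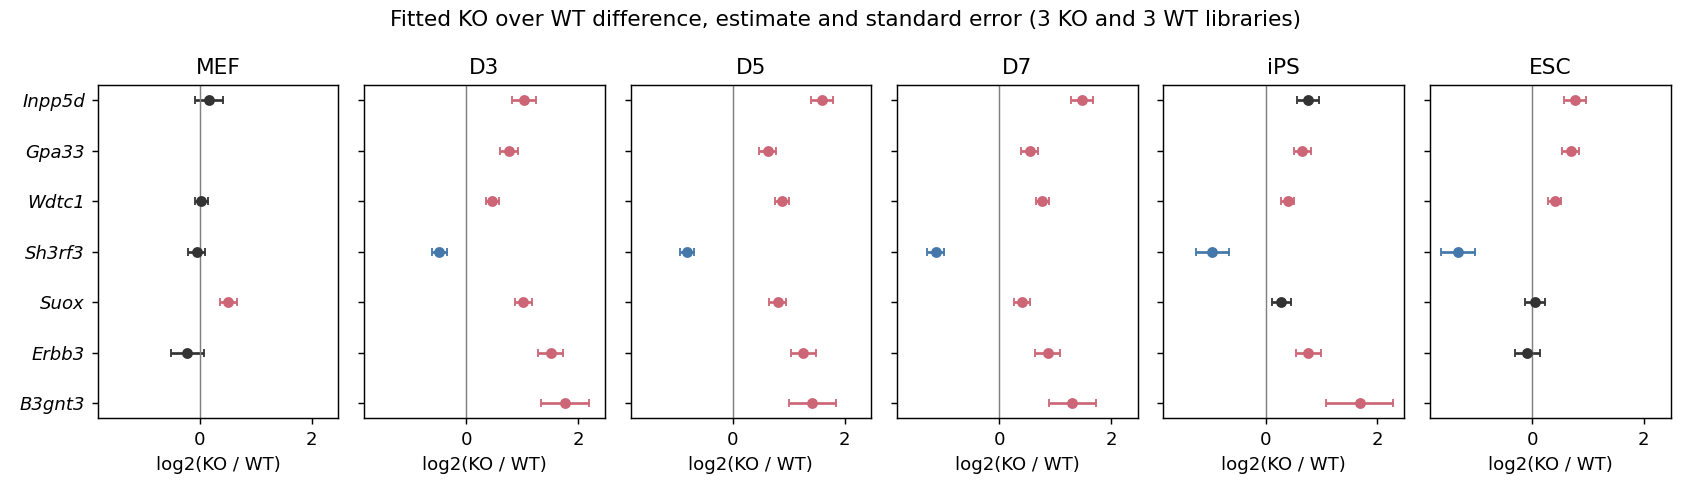
Fitted log2 KO over WT difference with its standard error, 1 panel a stage, for the 7 genes. Red and blue points mark genes whose 3 KO libraries all lay above or below the 3 WT libraries, dark points mark overlap, and Gpa33 in MEF and B3gnt3 in MEF and ESC are left out for low reads. All 7 genes are apart at D3, D5 and D7, against 1 (Suox) in MEF.

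The number of these genes past the call threshold (DESeq2 FDR under 0.05 over all genes tested) follows from how they were chosen, and nothing is read from it. In MEF 0 of the 7 passed, beside 0.0285% of all genes called higher and 0.0143% called lower in KO, with 2 of the 7 at an unadjusted p under 0.05 and 0 by edgeR. At D3 6 were higher and 1 lower, beside 0.374% and 0.119% of all genes. At D5 and at D7 the same split of 6 and 1 stood beside 4.72% and 2.43%, and beside 13.3% and 16.1%. In iPS 5 were higher and 1 lower (9.72% and 6.63% of all genes), and in ESC 3 and 1 (5.82% and 4.29%). The replicate block was 1 set of replicate effects shared by all 36 libraries, not a pairing within a stage. With it the count was 6 of 7 at D3, Sh3rf3 being the gene lost, and 7 of 7 at D7. The count was between 3 and 5 at D3, and between 3 and 7 in iPS, with any single library omitted, and 0 in iPS when those 6 libraries were fitted alone. Of all 21442 genes, 5 passed in the same direction at 5 of the 6 stages, namely Inpp5d, Gpa33, Wdtc1, Sh3rf3 and Piwil2, and 0 genes did so at all 6. A further 45 genes did so at 4 stages, Erbb3 and B3gnt3 among them, and 349 at 3 stages, Suox among them, so the 7 are not the whole of such genes.

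Each member had its own course through the control stages. These steps use the same WT libraries as the values above, but not the contrast that chose the genes. From MEF to D3, 4 of the 7 rose and 1 fell, where 33.8% of all genes tested were called higher and 37.1% lower. Gpa33 rose by a log2FC of 7.41 (SE 0.61, DESeq2 FDR 3.26e-33), a size that rests on 6 reads in the 3 fibroblast libraries. B3gnt3 rose by 4.74 (SE 0.63, FDR 2.38e-13), from 9 reads in 3 libraries, and Erbb3 by 4.62 (SE 0.27, FDR 3.67e-65). Sh3rf3 rose by 1.10 (SE 0.14, FDR 2.42e-14) and Wdtc1 had a log2FC of -0.86 (SE 0.12, FDR 4.43e-12). Inpp5d (log2FC 0.37, SE 0.24, FDR 0.163) and Suox (log2FC -0.18, SE 0.15, FDR 0.300) did not pass.

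From D3 to D5, 6 of the 7 rose and 0 fell, beside 12.4% and 12.7% of all genes. Inpp5d rose by 2.85 (SE 0.22, DESeq2 FDR 3.85e-37) and Gpa33 by 2.42 (SE 0.16, FDR 2.36e-50), ahead of Erbb3 at 0.96 (SE 0.23, FDR 0.000305) and Wdtc1 at 0.63 (SE 0.12, FDR 5.02e-06). The rises of B3gnt3 (log2FC 1.09, SE 0.43, FDR 0.0443) and Suox (log2FC 0.43, SE 0.15, FDR 0.0201) did not hold in 4 of 6 fits with a single library omitted, namely those without D3 WT replicate 2 or 3 or D5 WT replicate 1 or 2. The highest FDR was 0.236 for B3gnt3, without D5 WT replicate 1, and 0.0924 for Suox, without D3 WT replicate 2. Sh3rf3 did not pass (log2FC 0.22, SE 0.13, FDR 0.224).

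From D5 to D7, 3 rose and 1 fell, beside 13.5% and 10.7% of all genes. Inpp5d rose by 1.30 (SE 0.20, DESeq2 FDR 3.27e-09), Wdtc1 by 0.62 (SE 0.12, FDR 5.32e-06) and Gpa33 by 0.51 (SE 0.15, FDR 0.00679). Sh3rf3 had a log2FC of -1.08 (SE 0.13, FDR 6.12e-14). Suox, Erbb3 and B3gnt3 did not pass, with log2FC of 0.09 (SE 0.15), -0.03 (SE 0.23) and -0.39 (SE 0.42).

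Between D7 and iPS clones, 1 rose and 5 fell, beside 35.8% and 37.7% of all genes. Wdtc1 rose by 0.83 (SE 0.12, DESeq2 FDR 6.12e-12). B3gnt3 had the steepest fall, a log2FC of -5.43 (SE 0.56, FDR 2.80e-21), followed by Sh3rf3 at -3.10 (SE 0.20, FDR 3.55e-53), Suox at -2.29 (SE 0.16, FDR 6.42e-45), Erbb3 at -2.0 (SE 0.23, FDR 1.25e-17) and Gpa33 at -0.92 (SE 0.15, FDR 5.00e-09). Inpp5d did not pass (log2FC 0.12, SE 0.20, FDR 0.583). Between WT iPS and WT ESC 0 of the 7 passed, with 0 at an unadjusted p under 0.05 and 0 by edgeR, beside 1.09% of all genes higher and 2.11% lower. Inpp5d passed this step without iPS WT replicate 3, the highest of the 3 clones (log2FC 0.56, FDR 0.0312).

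Measured from MEF to ESC directly, 4 rose and 2 fell, beside 40% and 39.4% of all genes. Gpa33 (log2FC 9.57, SE 0.61), Inpp5d (4.89, SE 0.23), Erbb3 (3.92, SE 0.27) and Wdtc1 (1.20, SE 0.12) were higher in ESC, and Sh3rf3 (-2.73, SE 0.20) and Suox (-2.13, SE 0.17) lower, with DESeq2 FDR of at most 2.69e-23 for all 6. B3gnt3 did not pass (log2FC -0.59, SE 0.79, FDR 0.493), being near the floor at both ends. With TMM scaling the median of all genes moved from 0.05 to 0.16 on the log2 scale in this comparison, and the same 6 genes kept their direction and call.

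In order of WT level, Inpp5d was highest in ESC, iPS and D7, whose library ranges overlapped from one to the next, then D5, D3 and MEF, each below the last. Gpa33 was highest at D7, then D5, then ESC and iPS with overlapping ranges, then D3 and MEF. Wdtc1 ran from iPS and ESC, which overlapped, through D7, MEF and D5 to D3. Sh3rf3 was highest at D5 and D3, which overlapped, then D7 and MEF, with ESC and iPS overlapping at the bottom. Suox was highest at D7 and D5 (overlapping), then MEF and D3 (overlapping), then iPS and ESC (overlapping). Erbb3 was highest at D5 and D7 (overlapping), then D3, then ESC and iPS (overlapping), then MEF, and B3gnt3 had D5, D7 and D3 overlapping in a chain far above the other 3 stages. In KO some orders differed with library ranges apart. Inpp5d peaked at D7 with 3927 to 4649.9 normalised counts, above every KO ESC library (3103 to 3681). Wdtc1 was higher at D5 (2199 to 2628) than in MEF (1533 to 1561), and Sh3rf3 was higher in MEF (165 to 190.5) than at D7 (87.5 to 112), each the reverse of WT. Suox at D3 (855 to 985) was above MEF (688 to 749), Erbb3 at D5 (5058 to 5815) was above D7 (3879.8 to 4262), and Erbb3 in iPS (846 to 1179) was above ESC (523 to 812), where WT ranges overlapped.

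Per kilobase of exon, which allows genes to be set side by side, Gpa33 was the most abundant of the 7 in WT at D7 with 1304 ± 46.3 normalised counts per kb (SD, n = 3). Wdtc1 had 413 ± 12.2, Erbb3 375 ± 6.87, Suox 256 ± 15.3 and Inpp5d 208 ± 22.5, while B3gnt3 had 61.8 ± 13.4 and Sh3rf3 30.7 ± 1.86. In WT ESC Gpa33 (768 ± 27.7 per kb) and Wdtc1 (729.7 ± 87.7) led, then Inpp5d (268 ± 11.5), Erbb3 (121 ± 11.6) and Suox (46.0 ± 5.43), with Sh3rf3 at 3.90 ± 1.20 and B3gnt3 at 0.962 ± 0.897.

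The KO difference and the next step of the control course did not always have the same sign. At D7 the KO over WT log2FC was 1.47 for Inpp5d, 0.77 for Wdtc1 and -1.14 for Sh3rf3, and the WT step from D7 to iPS was 0.12, 0.83 and -3.10 for the same genes. For Erbb3, B3gnt3, Suox and Gpa33 the KO over WT log2FC at D7 was 0.87, 1.30, 0.41 and 0.55, and the step to iPS was -2.0, -5.43, -2.29 and -0.92. Both comparisons contain the 3 D7 WT libraries, so they are given side by side only.

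In bulk RNA, fewer cells of a type and less RNA per cell cannot be told apart, so markers of the cell types in which these genes are best known are set beside them. For Inpp5d, 10 blood cell markers summed to between 769 and 1221 normalised counts in D7 WT and between 1190 and 1355 in D7 KO, and to between 329 and 439 in D5 WT and between 454 and 521 in D5 KO. The sum was mostly Laptm5 and Cd68 at D7, while the defining marker Ptprc had group means of at most 10.8 at any stage, and Lyz2 and Adgre1 were listed at 0 in iPS and ESC of both genotypes. For Gpa33, 8 measured intestinal markers summed to between 1863 and 4123 in D7 WT and between 1586 and 3057 in D7 KO, and were led by Krt20. Cdx1, a transcription factor of intestinal epithelium, had group means of at most 0.648 from MEF to D5, and 6.45 in WT and 48.3 in KO at D7. Its means were 26.1 and 57.7 in WT and KO iPS, and 48.1 and 30.4 in WT and KO ESC. At D7 Cdh17 also had a slightly higher mean in KO, while Krt20, Isx, Hnf4a, Lgr5, Muc2 and Vil1 had lower means in KO. For Erbb3, 7 Schwann cell and melanocyte markers overlapped between genotypes at D3, with 343 to 364 in WT and 349 to 486 in KO, and Sox10 had group means of 6.93 and 8.55. The 10 epithelial markers were at 23442 to 30315 in D3 WT and 27165 to 31133 in D3 KO, and at 61793 to 67005 in D7 WT and 61657 to 63739 in D7 KO. The blood and epithelial sums (71120 to 72477 and 74937 to 77522) were apart at D5, and the intestinal sum was apart in iPS, at 48.2 to 117 in WT and 169 to 391 in KO. The sums overlapped between genotypes at D3 for all 4 lists, where Erbb3, Gpa33 and Inpp5d did not. At D3 the epithelial sum was led by Krt8 and the Schwann cell sum by Mbp, so the overlaps say little of the other markers. Single markers moved either way, such as Cldn3 (D3 means of 1810 in WT and 966 in KO) and Hnf4a (10.5 and 29.1). The part of these cell types in the values of the 7 genes was not tested at any stage.

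Genes that work with the 7 were described from 7 lists with 114 genes in the table. In MEF 0 passed, with 5 at an unadjusted p under 0.05 and 0 by edgeR. At D3 1 of 105 tested passed and was lower, or 0.952%, beside 0.119% of all genes. It was B3gnt5 (log2FC -1.03, SE 0.22, DESeq2 FDR 0.00180, lost without D3 KO replicate 2 at 0.0604). At D5 4 were higher and 4 lower of 109 tested, or 3.67% each way, beside 4.72% and 2.43% of all genes. At D7 22 were higher and 19 lower of 114, or 19.3% and 16.7%, where all genes gave 13.3% and 16.1%. In iPS 16 were higher and 4 lower (14.0% and 3.51%, beside 9.72% and 6.63% of all genes), and in ESC 7 of 107 were higher and 2 lower (6.54% and 1.87%, beside 5.82% and 4.29%). The median log2FC over the partner genes was within 0.08 of 0 at each stage, as the median of all genes was.

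The counts of single lists below are to be read beside the shares of all genes called higher and lower. These were 0.374% and 0.119% at D3, 4.72% and 2.43% at D5, 13.3% and 16.1% at D7, 9.72% and 6.63% in iPS, and 5.82% and 4.29% in ESC. Among ErbB receptors and ligands, 13 in the table, 1 was higher and 4 lower in D7 KO, 1 was higher in iPS and 0 passed at MEF, D3, D5 and ESC. Tgfa, a ligand of Egfr, fell at D7 from 240.5 ± 75.7 to 100 ± 36.2 normalised counts (SD, n = 3, log2FC -1.26, SE 0.34, DESeq2 FDR 0.00120). Erbb4, another neuregulin receptor, was called lower at D7 on 4, 4 and 2 reads in WT against 0 in each KO library. The neuregulin gene Nrg2 was called at D7 (log2FC -1.15, SE 0.38, FDR 0.0107) and in iPS (log2FC 1.12, SE 0.38, FDR 0.0222), and both calls were lost when single libraries were left out, with FDR up to 0.110 without D7 WT replicate 1 and 0.332 without iPS KO replicate 1.

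Among 20 phosphoinositide phosphatases and PI 3-kinases, 5 were higher and 5 lower in D7 KO, 2 and 1 at D5, 3 and 1 in iPS and 2 and 1 in ESC, and 0 passed in MEF or at D3. Ocrl, a 5-phosphatase of the Golgi and endosomes, rose at D7 from 859.9 ± 31.4 to 1151 ± 91.7 (log2FC 0.42, SE 0.09, DESeq2 FDR 4.53e-05) and in iPS from 656 ± 94.9 to 1039 ± 115 (log2FC 0.66, SE 0.09, FDR 2.58e-10). Inpp5k, which also removes the 5-phosphate, rose at D7 from 569 ± 19.8 to 962 ± 74.0 (log2FC 0.76, SE 0.16, FDR 4.28e-05). In iPS it was called lower in KO, from 749 ± 161 to 550 ± 195, a call lost in 4 of 6 fits with 1 library left out. Inppl1, which encodes SHIP2, the close relative of the Inpp5d product, rose at D7 from 3052 ± 93.0 to 3947 ± 159 (log2FC 0.37, SE 0.08, FDR 4.56e-05), a smaller difference than the 1.47 of Inpp5d on the same day.

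Of 16 O-glycan enzymes, 2 were higher and 1 lower at D7, 1 lower at D3 and 1 higher in iPS. B3gnt9, a relative of B3gnt3, fell at D7 from 103 ± 15.1 to 52.6 ± 11.6 (log2FC -0.98, SE 0.22, DESeq2 FDR 8.53e-05). B3gnt7, which acts on keratan sulfate chains, had 1612 ± 75.9 and 1911 ± 128 at D7 (log2FC 0.24, SE 0.08, FDR 0.00873, and up to 0.0668 without D7 KO replicate 1, with D7 WT replicate 2 the other library whose omission lost the call). Of 16 genes of molybdenum cofactor and sulfite metabolism, 3 were higher and 1 lower at D7, 4 and 1 in iPS, and 1 lower in ESC. Aox3, an aldehyde oxidase that needs the same cofactor as Suox, rose at D7 from 19.3 ± 2.55 to 77.0 ± 21.7 (log2FC 2.0, SE 0.43, FDR 4.42e-05) and in iPS from 31.3 ± 8.77 to 148 ± 66.0 (log2FC 2.24, SE 0.41, FDR 3.05e-06). Got1, an aspartate aminotransferase, rose at D7 from 2645 ± 45.4 to 3643 ± 199 (log2FC 0.46, SE 0.08, FDR 2.71e-07), and Csad, an enzyme of taurine synthesis, from 149.7 ± 23.9 to 242 ± 36.8 (log2FC 0.69, SE 0.17, FDR 0.000539).

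Of 23 CUL4-DDB1 ligase genes, 9 were higher and 2 lower at D7 (39.1% and 8.7%, beside 13.3% and 16.1% of all genes), 2 and 0 at D5, 5 and 1 in iPS, and 3 and 0 in ESC. Dcaf5, a substrate receptor like Wdtc1, rose at D7 from 609 ± 42.7 to 746 ± 30.6 (log2FC 0.29, SE 0.08, DESeq2 FDR 0.00189) and in ESC from 432 ± 20 to 591 ± 11 (log2FC 0.45, SE 0.08, FDR 1.53e-05). Dtl, a receptor used in S phase, rose at D5 from 1412 ± 147 to 1845 ± 28.6 (log2FC 0.39, SE 0.07, FDR 4.80e-06), and the cullin Cul4b rose at D7 from 3639.8 ± 234 to 4978 ± 373 (log2FC 0.45, SE 0.09, FDR 1.57e-05). Of 17 SH3RF and JNK pathway genes, 1 was higher and 3 lower at D7, 0 and 1 at D5, 1 and 1 in iPS, and 2 and 0 in ESC. The kinase gene Map2k4 rose in ESC from 1101 ± 71.2 to 1381 ± 11 (log2FC 0.33, SE 0.08, FDR 0.00136). The scaffold gene Mapk8ip1 was called lower at D5 (log2FC -0.65, SE 0.18, FDR 0.00935), a call lost without D5 KO replicate 3 (0.0850) or D5 WT replicate 1, and the kinase gene Mapk9 was called higher in ESC (log2FC 0.30, SE 0.09, FDR 0.0113), a call lost without ESC WT replicate 1 (0.125) or ESC KO replicate 2.

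Of 9 adhesion proteins of the family of Gpa33, 1 was higher and 3 lower at D7, 0 and 2 at D5, and 1 was higher in iPS. Vsig8 fell at D7 from 512 ± 93.4 to 193 ± 37.8 (log2FC -1.41, SE 0.20, DESeq2 FDR 3.75e-11), Cxadr, which encodes the coxsackievirus and adenovirus receptor, from 3695 ± 133 to 2744 ± 202 (log2FC -0.43, SE 0.07, FDR 2.23e-08), and Jam3, a junctional adhesion molecule, from 172 ± 26 to 97.2 ± 10.8 (log2FC -0.82, SE 0.23, FDR 0.00223). On the same day Gpa33 was higher in KO, as given above.

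Within 100 kb of the 7 genes lie 41 other genes of the table. In MEF 0 passed, with 3 at an unadjusted p under 0.05 and 0 by edgeR. At D3 1 was higher of 33 tested, or 3.03%, beside 0.374% of all genes. At D5 3 were higher and 1 lower of 37 tested, or 8.11% and 2.7%, beside 4.72% and 2.43%. At D7 12 were higher and 4 lower of 41, or 29.3% and 9.76%, where all genes gave 13.3% and 16.1%. With TMM scaling the D7 split was 12 and 2. The D7 KO libraries also had higher pluripotent marker sums, and the part of that difference in the D7 split was not tested. Among neighbours higher at D7, WT means rose from D7 to iPS for Dusp27 (320.2 to 3454) and Jak3 (128.1 to 963.7). They also rose for Fcho1 (102.1 to 815.7) and Unc13a (81.6 to 382.3), but fell for Rab5b and Dgka, as given below. In iPS 6 were higher and 3 lower (6 and 5 with TMM scaling), or 14.6% and 7.32%, near the 9.72% and 6.63% of all genes. In ESC 1 of 36 tested was higher and 0 lower, or 2.78% and 0%, below the 5.82% and 4.29% of all genes. At D3 the count was 2 with the replicate block, which added Ikzf4.

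On the side of its start site lie Rab5b, Cdk2, Pmel, Dgka and Pym1, and 5 of the 8 neighbours of Suox, these 5, were higher in D7 KO, while 0 of the 8 were lower (62.5% and 0%, beside 13.3% and 16.1% of all genes). Around Gpa33 2 of 3 neighbours were higher and 1 lower, and no test compared the loci. Cdk2, the cell cycle kinase gene 23866 bp away, had 1287, 1383 and 1178 normalised counts in D7 WT and 2333, 2499 and 2245 in D7 KO (log2FC 0.88, SE 0.10, DESeq2 FDR 1.86e-16), and was also higher at D5 (log2FC 0.62, SE 0.10, FDR 2.55e-07). Rab5b, an endosomal GTPase gene 3102 bp away, rose at D7 from 3262 ± 99.1 to 4122 ± 280.3 (log2FC 0.34, SE 0.07, FDR 1.23e-05). Pmel, a melanosome protein gene, rose from 19 ± 1.40 to 70.5 ± 13 (log2FC 1.90, SE 0.41, FDR 4.98e-05), Dgka, a diacylglycerol kinase gene, from 1612 ± 131 to 2878 ± 145 (log2FC 0.84, SE 0.19, FDR 0.000160), and Pym1, an exon junction complex factor gene, from 708 ± 56.4 to 1093 ± 28.4 (log2FC 0.63, SE 0.08, FDR 3.89e-14). The annotated bodies of Cdk2, Pmel and Dgka overlap at their ends, so their counts are less certain. In WT the means rose from D7 to iPS for Cdk2 (1283 to 2868), Pym1 (707.6 to 1585) and Pmel (18.97 to 954.6). They fell for Rab5b (3262 to 1555) and Dgka (1612 to 1168). The part of this control course in the D7 differences of these 5 genes was not tested. Suox itself had a smaller D7 log2FC, 0.41, than 4 of these 5, while at D3, where Suox stood at 1.02, 0 of its neighbours passed, or 1, Ikzf4, with the replicate block.

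Between Suox and Erbb3, Ikzf4, a zinc finger gene of the Ikaros family, was higher at D5, from 59.6 ± 7.09 to 126 ± 22.6 (log2FC 1.08, SE 0.30, DESeq2 FDR 0.00843), a call lost without D5 KO replicate 2 (FDR 0.0938). Rab5b was called at D5 as well (log2FC 0.21, SE 0.07, FDR 0.0452), which did not hold in 5 of 6 fits with a single library omitted. Beyond Erbb3 on the other side, Pa2g4, the nearest gene at 1536 bp, was not called at any stage, and neither was Gm9182, the nearest gene between the pair, and of the 8 genes there only Gm9176 (lower at D7) and Rpl41 (lower in iPS, log2FC -0.21, SE 0.08) were called, both lost when single libraries were left out (FDR up to 0.264 without D7 WT replicate 3 and 0.380 without iPS WT replicate 3).

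Around Gpa33, the adjacent Dusp27 at 2316 bp, a phosphatase-family gene, rose at D7 from 320.2 ± 47.5 to 898 ± 134 (log2FC 1.49, SE 0.17, DESeq2 FDR 9.33e-16). It was called at D3 too (log2FC 0.88, SE 0.20, FDR 0.00379), a call lost without D3 KO replicate 2 (0.0628) or D3 WT replicate 2. Mael, a gene of the piRNA pathway in germ cells 34691 bp away, had 77, 100 and 227 reads in iPS WT and 552, 211 and 427 in iPS KO (log2FC 1.68, SE 0.46, FDR 0.00384, and 0.0706 without iPS KO replicate 1). In ESC it had 214, 187 and 189 reads in WT and 445, 683 and 606 in KO (log2FC 1.5, SE 0.46, FDR 0.0178), a call lost in 5 of 6 fits with 1 library left out, up to 0.139 without ESC KO replicate 2. At D7 it was called on 0 reads in WT against 0, 3 and 4 in KO. Ildr2, at 87629 bp, went the other way, from 576 ± 9.73 to 297 ± 80.7 at D5 (log2FC -0.96, SE 0.19, FDR 2.50e-05) and from 288 ± 64.8 to 112 ± 20 at D7 (log2FC -1.35, SE 0.20, FDR 4.96e-10), so the neighbours of Gpa33 did not share a direction.

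Beside B3gnt3, the cytokine receptor kinase gene Jak3 ends 181 bp away and had 109, 181 and 93.6 normalised counts in D7 WT and 437, 459.6 and 371 in D7 KO (log2FC 1.72, SE 0.21, DESeq2 FDR 8.52e-15). At D3 and D5, where B3gnt3 was also higher in KO, Jak3 means were 42.7 and 46.7, and 46.1 and 53.4, in WT and KO, with overlapping libraries. In iPS Jak3 was called higher (log2FC 0.52, SE 0.19, DESeq2 FDR 0.0413), a call lost in 3 of 6 fits with 1 library left out. The body of Insl3 lies within the end of Jak3 on the same strand, so Jak3 counts are less certain. Fcho1, an endocytosis gene, rose at D7 from 102 ± 26.7 to 250.4 ± 13.8 (log2FC 1.29, SE 0.31, FDR 0.000222), and Unc13a, a synaptic vesicle priming gene, from 81.6 ± 10.7 to 188 ± 8.97 (log2FC 1.20, SE 0.23, FDR 3.62e-06). Gm18860, the nearest gene on the other side at 2416 bp, was called lower in iPS (log2FC -0.33, SE 0.09, FDR 0.00373), and this was lost without iPS KO replicate 1 (0.0823) or iPS WT replicate 3. Next to Sh3rf3, which was lower in KO, Septin10 at 2711 bp, a cytoskeletal GTPase gene, was higher, from 237 ± 24.0 to 391 ± 35.4 at D7 (log2FC 0.72, SE 0.19, FDR 0.000880) and from 553 ± 115 to 1029 ± 369 in iPS (log2FC 0.90, SE 0.18, FDR 2.85e-05). On its other side Gm6494, at 53792 bp, was not called at any stage.

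Near Wdtc1, Wasf2, an actin regulator gene 92703 bp away, rose at D7 from 4945 ± 273 to 6341 ± 206 (log2FC 0.36, SE 0.10, DESeq2 FDR 0.00207). Map3k6 and Cd164l2 were called lower at D7, and both lost the call whichever library was omitted, with FDR up to 0.144 and 0.142. Cd164l2 was called higher in iPS, from 12.8 ± 5.16 to 26.4 ± 13.9, a call lost in 4 of 6 fits with 1 library left out. Tmem222, at 14667 bp, was not called at D3, D5 or D7. Around Inpp5d, neither Ngef at 46442 bp nor Atg16l1 at 35363 bp was called from D3 to D7, when Inpp5d differed most. Atg16l1, an autophagy gene, was called lower in iPS (log2FC -0.28, SE 0.09, FDR 0.0133), and this was lost without iPS WT replicate 2 (0.159), iPS KO replicate 1 or iPS KO replicate 3.

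The genes whose level followed each member most closely over the 12 group means were sought among 16670 genes with a mean of at least 20 normalised counts, by Pearson's r of log2(normalised count + 1). The 12 means share libraries and the course of reprogramming, so r is a description. For Inpp5d they were Cth, Rab25 and Arhgef3 (r 0.983, 0.978 and 0.977), and for Gpa33 they were Ap1m2, Panct2 and Kdf1 (0.994, 0.992 and 0.9915). Wdtc1 was followed by Ubxn1, Zswim1 and Pbx4 (0.982, 0.981 and 0.975), and Sh3rf3 by Rusc1, Serf1 and LTO1 (0.993, 0.992 and 0.989). Suox was followed by Gm13767, Eps15 and Vhl (0.979, 0.977 and 0.975), Erbb3 by Ube2dnl1, Dmrtc2 and Znrf2 (0.993, 0.984 and 0.981), and B3gnt3 by Nfe2, Cfap57 and Coq3 (0.989, 0.978 and 0.977). Among the 7 themselves r ran from -0.897 for Sh3rf3 and Wdtc1 to 0.878 for Erbb3 and Gpa33. Suox and Erbb3, the pair that lie 80242 bp apart, had r of 0.231. Of the 21 genes named, 8 stayed among the 3 nearest when the 36 libraries were used as points.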

How the data were processed

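Single-end reads of 36 stranded mRNA libraries were trimmed with cutadapt, mapped to GRCm38 (GRCm38.p6 in the submitters' processing notes) with STAR and assigned to genes with Rsubread by the authors, after FastQC. The annotation release and the strand setting of the counting are not given in the sources used here. The authors deposited raw counts per gene (21442 genes) and a table of normalised counts, a signal that equals the counts divided by DESeq2 size factors to a relative difference of at most 6.91e-15. Both tables were used. Tables of fold changes and p-values from the authors' own comparisons were not used, except that the one for MEF, which also repeats the normalised signal of those libraries, gave the gene names. A batch-corrected log table was not used.

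Groups and replicate numbers came from sample titles. Counts were fitted with DESeq2 1.42.0 in R 4.3.3, all 36 libraries in 1 fit with stage and genotype merged into 1 factor of 12 levels, and a call was a Benjamini-Hochberg FDR under 0.05 over all genes tested. The alternatives were edgeR 4.0.16 (quasi-likelihood test, TMM), TMM factors within DESeq2, 2 filters on low counts, the groups compared alone, the replicate block and each library left out in turn. The replicate block added the replicate number as a factor over all 36 libraries. The members, their lists and the rules were chosen with earlier results of these data known. Named were the 7 members, Zfp266, the 3 genes of most like pattern to each, the 3 partner genes with the lowest FDR of each list, and the called or nearest neighbours (1 gene is not reported here), with other genes named after their values were seen. Fibroblast, pluripotent, epithelial, blood, intestinal, Schwann cell and endothelial marker lists were summed.

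Positions are from GENCODE (GRCm38) and promoters from RefSeq (GRCm38.p6). Erbb3 had no promoter entry. A 0 allows up to 3 reads in a library, and this floor covers counting error only. The methods call the reprogramming samples and iPS clones independent, but do not say this of MEF or ESC, where p-values measure only the spread between these libraries, which may be technical. Library preparation date, which the authors' methods name as a batch effect, is not in the labels, so no within-batch value is given and that batch and the groups cannot be told apart.

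Replicate numbers were checked by correlating, over 14637 genes, the deviations of same-numbered WT and KO libraries from their group means. All 3 pairs were over 0.1 at D3 (0.456, 0.101 and 0.272) and D7 (0.339, 0.172 and 0.392), so numbers were taken to pair samples there, from the data and not from the labels. They were not all over 0.1 in MEF, D5, iPS or ESC, which the replicate block also spans. At D5 they were 0.268, 0.0897 and 0.2215, so this cut sets D5 apart from D3 by little. No paired fit of D3 or D7 alone was run.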

Additional observations from a re-analysis of the deposited data

Results flagged for a closer look

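Partner genes called in opposite directions at 2 stages, with KO libraries all above WT at one and all below at the other, were looked for among the named genes, and 4 were found. The difference between stages was not tested. B3gnt5 had a log2FC of 0.79 at D7 and -1.03 at D3. Inppl1 had 0.24 at D5 and 0.37 at D7, and -0.27 in ESC. Mapk9 had 0.30 in ESC and -0.25 at D7, and Nrg2 had 1.12 in iPS and -1.15 at D7. Of these values, the D7 one of Inppl1 alone kept its call in all 6 fits that left out 1 library. With 3 libraries in each group, no group was large enough for an outlier test.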

How the results depend on the processing

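The 42 KO over WT values of the 7 genes moved by less than the spread between replicates under all 6 other settings. Turning off the filter on low counts changes only the FDR, so it could not move these values. All other settings use the same counts, so this stability says little of the calls, which did move as given below. With 1 library left out, 3 values moved further, Gpa33 and B3gnt3 in MEF and B3gnt3 in ESC, all near the floor. With the replicate block the count of members at D3 was 6 (7 without it) and that of neighbours at D3 was 2 (1 without it), and no other count moved by over 1.5 times. By edgeR 4 members and 0 neighbours passed at D3, and 2 partners at D5. With only the groups compared in the fit, 0 members, 2 partners and 2 neighbours passed in iPS, 15 partners and 5 neighbours in ESC, and 4 and 8 neighbours at D3 and D5. Of 21 genes of like pattern, 8 stayed with 36 libraries as points. The cause of these shifts was not tested, beyond the fewer libraries in the fit of the groups alone.

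With each library left out in turn, the counts ranged as follows. Members passed 3 to 5 (D3), 6 to 7 (D5), 5 to 7 (D7), 3 to 7 (iPS), 3 to 4 (ESC), 4 to 6 (WT D3 to D5) and 0 to 1 (WT iPS to ESC). Partners passed 0 to 1 (MEF and D3), 3 to 6 (D5), 23 to 34 (D7), 8 to 24 (iPS) and 4 to 8 (ESC). Neighbours passed 0 to 2 (D3), 2 to 4 (D5), 12 to 14 (D7, against 16 with all libraries), 3 to 13 (iPS) and 0 to 1 (ESC). Steps of the control course that were not called changed sign without single libraries, with log2FC from -0.19 to 0.35 for Inpp5d (D7 to iPS), -0.085 to 0.064 for Erbb3 (D5 to D7) and -1.64 to 0.040 for B3gnt3 (MEF to ESC). From iPS to ESC they ranged from -0.16 to 0.083 for Wdtc1, where 0.058, 0.016 and 0.056 came without ESC WT replicate 1, ESC WT replicate 2 and iPS WT replicate 1, from -0.13 to 0.41 for Sh3rf3, from -0.33 to 0.018 for Suox and from -1.66 to 0.11 for B3gnt3. Genes with few reads, B3gnt3 and Gpa33 in MEF, B3gnt3 in iPS and ESC and Sh3rf3 in iPS and ESC, are where depth limits the values.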

Other observations

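Besides Inpp5d, Gpa33, Wdtc1 and Sh3rf3, Piwil2 was called in the same direction at 5 of 6 stages, and 4 genes differed by over 2-fold with a call at 4 stages, namely Piwil2, B3gnt3, Nod2 and Snx20. The paper had already shown B3gnt3, Piwil2 and Snx20 mRNA from its RNA-seq. It chose these genes for reporter assays because KO increased their transient rise in reprogramming. Piwil2 and Mael, the neighbour of Gpa33, both act in the piRNA pathway of germ cells. These genes were named after their values were seen. Endothelial markers summed to between 1624 and 2031 normalised counts in D7 WT and between 3871 and 3925 in D7 KO, with Emcn listed at 0 in D7 WT. The sums were also apart in iPS (1342 to 2111 in WT and 2584 to 3511 in KO) and in ESC (1853 to 2144 and 2580 to 3059). There the higher KO sum was that of Pecam1, with WT and KO means of 1232 and 2819 in iPS and 1372 and 2447 in ESC. Tek, Tie1, Kdr, Esam and Cldn5 had lower means in KO at both stages, so the list did not move as a whole. The part of these markers in the values of the 7 genes was not tested.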
